A study of Mus musculus with 11 samples.

Results

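The genes described here are 10 members of the fibroblast growth factor (FGF) pathway, namely the receptors Fgfr1, Fgfr2 and Fgfr3, the ligands Fgf2, Fgf7 and Fgf18, and the feedback inhibitors Spry1, Spry2, Spry4 and Dusp6. They were chosen by name and looked up by Ensembl identifier among the 28222 genes of the count table. Of the 10 members, 9 had a row and all 9 passed the filter on low counts, while Fgf2 was not analysed here. The study sequenced polyadenylated RNA of mesenchymal stem cells (MSCs) that had been isolated from mice and kept in culture at 2% oxygen. The 11 libraries came from young mice of 3 to 5 months or old mice of 18 to 22 months and fell into 3 labelled batches. There were 4 young libraries in batch A, 2 of each age in batch B and 3 old ones in batch C. Batch B is thus the one batch in which both ages can be compared, and the labels give neither what a batch stands for nor the strain or sex of the mice. Nothing stated that the libraries of a group came from separate mice, so the p-values measure the spread between these libraries, which may be technical.

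FGF ligands bind receptor tyrosine kinases together with heparan sulphate, and the receptors pass the signal through FRS2, GRB2 and RAS to the kinases RAF, MEK and ERK. ERK signalling induces its own inhibitors. The Sprouty proteins act upstream of ERK at the level of RAS and RAF, and DUSP6 is a phosphatase that removes the activating phosphates from ERK in the cytoplasm. In the skeleton the pathway is known for its part in the growth plate and in cranial bone, and FGF2 is a common mitogen for cultured stromal cells.

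Upstream sequences are shown for Spry1, the 1 member called for age, and for Spry2 and Dusp6, feedback inhibitors that were not called for age but rose in batch C. RefSeq start sites on GRCm38.p6 gave an entry for 8 members, and the 250 bases before the start are printed 5′ to 3′ on the strand of the gene for Spry1 (chr3:37639697-37639946, plus strand), Spry2 (chr14:105896820-105897069, minus strand) and Dusp6 (chr10:99262981-99263230, plus strand). Capitals mark the GC box GGGCGG or its reverse complement.
Spry1: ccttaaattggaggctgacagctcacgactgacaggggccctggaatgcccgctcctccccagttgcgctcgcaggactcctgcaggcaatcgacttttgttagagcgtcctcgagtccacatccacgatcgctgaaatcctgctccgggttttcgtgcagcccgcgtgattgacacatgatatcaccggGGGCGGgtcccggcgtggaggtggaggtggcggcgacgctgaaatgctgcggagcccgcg
Spry2: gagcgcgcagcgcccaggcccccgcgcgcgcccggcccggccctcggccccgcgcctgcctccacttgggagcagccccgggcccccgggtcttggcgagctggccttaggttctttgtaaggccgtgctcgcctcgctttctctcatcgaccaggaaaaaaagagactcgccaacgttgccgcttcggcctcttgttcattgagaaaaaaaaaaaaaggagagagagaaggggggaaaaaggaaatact
Dusp6: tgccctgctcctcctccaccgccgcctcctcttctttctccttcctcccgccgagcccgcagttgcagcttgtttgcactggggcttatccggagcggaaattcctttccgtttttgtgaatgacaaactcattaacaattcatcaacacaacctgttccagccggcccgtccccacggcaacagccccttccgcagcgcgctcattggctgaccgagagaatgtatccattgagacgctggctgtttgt
Both strands were searched for the GC box, for the ETS core CCGGAA and for the EGR motif GCGTGGGCG. An EGR motif followed by a G would also count as a GC box. Spry1 held 1 GC box, which began 60 bases before the start, and the windows of Spry2 and Dusp6 held none. The Spry1 window also overlapped 1 annotated exon, and those of Spry2 and Dusp6 overlapped 0. None of the 3 windows held the ETS core or the EGR motif. Among 32851 upstream windows of the same length, 32.7% held a GC box, 12.0% the ETS core and 0.536% the EGR motif, so these letters did not set the 3 genes apart. The bases were 62.4% G or C in Spry1 and in Spry2 and 56.4% in Dusp6.

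Levels are given as CPM, the count of a gene relative to the library's total after edgeR's TMM scaling. Library totals ranged from 11969336 to 20315934 counts. Compared per kilobase of annotated exon, which sets genes of different length on one scale, and leaving out the Fgfr2 row (median 96.2 CPM per kb), which may hold reads of other genes, Fgf7 had the highest median over the 11 libraries at 57.9 CPM per kb, followed by Fgfr1 at 18.9 CPM per kb. These levels did not overlap between libraries, from 39.1 to 87.1 CPM per kb for Fgf7 and from 13.3 to 22.0 CPM per kb for Fgfr1. The other medians were 8.51 CPM per kb for Spry2, 6.08 for Dusp6, 4.22 for Spry1, 3.88 for Fgfr3, 1.68 for Fgf18 and 0.934 for Spry4. Each of these genes overlapped its next neighbour between libraries, so that the ranges alone did not resolve neighbours. Within each of the 11 libraries Fgfr3 lay above Fgf18, whereas the order of the other neighbours was not the same in every library. Genes further apart in the series were in part resolved, since Spry2 (6.65 to 12.4 CPM per kb) lay wholly above Spry1 (3.28 to 5.70), and Spry1 wholly above Fgf18 (at most 2.99). Whether reads in introns were counted is not given for these libraries, which bears on any level per exon length.

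**Figure D1:**
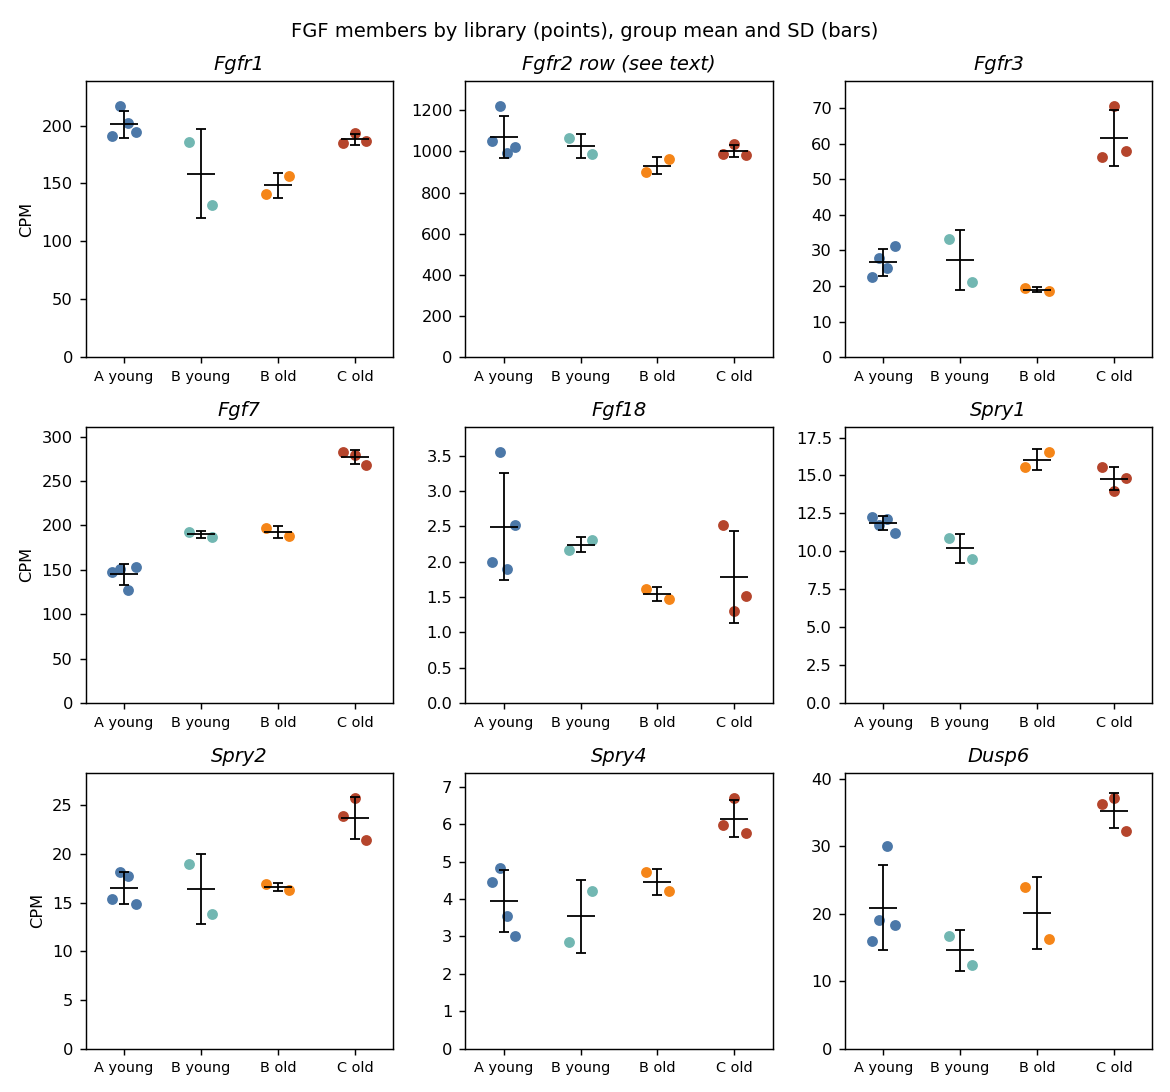
CPM (vertical axes, from 0, 1 scale per gene) of the 9 members in each library, as points in 4 groups, with the group mean and SD as black bars. Spry1 is the member whose 5 old libraries (14.0 to 16.6 CPM) all lie above the 6 young libraries (9.52 to 12.3 CPM), and Fgfr3, Fgf7, Spry2, Spry4 and Dusp6 are highest in the 3 batch C old libraries.

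The row named Fgfr2 could not be read as Fgfr2 alone. In the annotation Fgfr2 lies at chr7:130162451-133123350 on the minus strand, a span of 2961 kb that rests on 1 of its 27 transcripts. The other transcripts cover 104 kb. Within the long span lie 13 other protein-coding genes on the same strand, among them Oat, Ate1 and Chst15, and 0 of the 13 had a row, compared with 14 of 16 protein-coding genes on the opposite strand. Ctbp2, which crosses the end of the span on the same strand, had 31 counts in all libraries together. Over the genome, 10 of 465 protein-coding genes inside another gene on the same strand had a row (2.15%), against 75.4% of 825 genes inside a gene on the opposite strand only and 84.2% of 20738 genes inside no other gene. The Fgfr2 row was at 900.5 to 1220 CPM and may hold reads of these neighbours. The remaining 8 members with a row had no gene on the same strand overlapping them, and the genes on the opposite strand of these members had at most 22 counts in total.

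**Figure D2:**
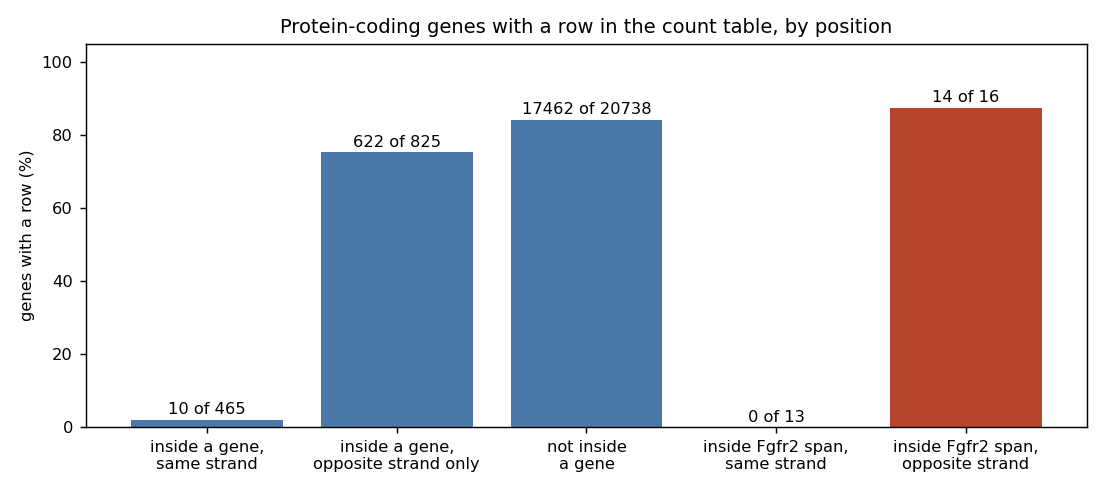
Share of protein-coding genes that had a row in the count table (vertical axis, percent, from 0), by the gene's position relative to other annotated genes (blue) and inside the annotated Fgfr2 span (red), with the numbers of genes above each bar. Genes inside another gene on the same strand rarely had a row, and 0 of 13 did inside Fgfr2.

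Fgf2, the mitogen at chr3:37348346-37410108 on the plus strand, overlaps a non-coding gene on the same strand, Gm43439 (chr3:37312519-37404866), which shares 255 bases of exon with it and had 8792 counts. Gm43439 was picked after its values were seen, and reads in the shared bases cannot be assigned to either gene from this table. It was at 44.6, 51.1, 38.4 and 42.7 CPM in batch A young libraries, at 63.7 and 57.9 CPM in the young and 48.0 and 46.3 CPM in the old libraries of batch B, and at 57.8, 66.3 and 66.5 CPM in batch C old libraries. Within batch B its old libraries were lower than its young ones, but the difference did not pass the test (log2 fold change −0.36, SE 0.13, edgeR's quasi-likelihood test, adjusted p = 0.168). No statement on Fgf2 is drawn from this row.

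The first comparison asked which members differed between old and young MSCs within batch B. Of the 9 members tested 1 rose, Spry1, and 0 fell, against 2.23% of all 16132 genes tested in either direction. The median log2 fold change of the 9 members was 0.02, close to 0.00 for all genes tested. The old and young libraries of batch B did not overlap for 4 members (Fgfr2 row, Fgfr3, Fgf18 and Spry1) of 9, near the share of 39.8% over all genes.

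Spry1 (chr3:37639947-37644598, plus strand), a Sprouty inhibitor of receptor tyrosine kinase signalling, measured 10.9 and 9.52 CPM in the young and 15.5 and 16.6 CPM in the old libraries of batch B. Both old libraries were above both young libraries. The log2 fold change was 0.66 (SE 0.14), a 1.58-fold higher level (edgeR's quasi-likelihood test with Benjamini-Hochberg adjustment, adjusted p = 0.021). The libraries outside batch B stood on the same sides, with 12.3, 11.8, 12.1 and 11.2 CPM in batch A young and 15.5, 14.0 and 14.8 CPM in batch C old libraries. Thus all 5 old libraries exceeded all 6 young libraries, a separation in either direction that 6.97% of the genes tested also showed. The batch B libraries that gave the call are part of this separation. Batch C old and batch A young libraries by themselves did not overlap for 64.5% of the 15021 genes tested there. The counts behind these values were 138 to 265 reads per library.

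The Spry1 call rested on few libraries. It was lost when batch B was fitted alone (log2 fold change 0.66, adjusted p = 0.201), without batch B old replicate 1 (0.72, adjusted p = 0.105) and without batch B old replicate 2 (0.61, adjusted p = 0.126), all by edgeR's quasi-likelihood test. Without the batch term, where all old libraries were set against all young ones and age and batch are mixed, Spry1 was higher by 0.46 (SE 0.10, edgeR adjusted p = 0.0155) and Fgf7 by 0.63 (SE 0.15, edgeR adjusted p = 0.0194), which made 2 of 9 members against 18.0% of all genes.

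Of the receptors, Fgfr3 (chr5:33721674-33737068, plus strand), which restrains growth plate cartilage, measured 33.2 and 21.2 CPM in the young and 19.5 and 18.5 CPM in the old libraries of batch B. The old libraries were lower, by a log2 fold change of −0.51 (SE 0.19), but this did not pass the test (edgeR adjusted p = 0.192). Batch B young replicate 1 decided its size, since the value was −0.16 without that library and −0.79 (edgeR adjusted p = 0.0137) without batch B young replicate 2. Fgfr1 (chr8:25513654-25575718, plus strand), the main receptor of mesenchyme, measured 186 and 131 CPM in the young and 141 and 156 CPM in the old libraries of batch B, and these groups overlapped (log2 fold change −0.08, 95% interval −0.35 to 0.18). The Fgfr2 row differed by −0.13 (SE 0.12, edgeR adjusted p = 0.642).

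Among the ligands, Fgf7 (chr2:126034658-126091185, plus strand), the keratinocyte growth factor that stromal cells secrete toward epithelia, measured 193 and 187 CPM in the young and 198 and 188 CPM in the old libraries of batch B. The groups overlapped, and the 95% interval of the log2 fold change was −0.18 to 0.25. Fgf18 (chr11:33117430-33147400, minus strand), a ligand of growing bone and cartilage, measured 2.16 and 2.31 CPM in the young and 1.61 and 1.47 CPM in the old libraries of batch B. The difference of −0.52 on the log2 scale did not pass (SE 0.38, edgeR adjusted p = 0.529) and rested on 22 to 41 counts per library, and its 95% interval was wide, at −1.27 to 0.22.

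The other feedback inhibitors did not pass the test for age. Dusp6 (chr10:99263231-99267489, plus strand) measured 16.7 and 12.5 CPM in the young and 23.9 and 16.3 CPM in the old libraries of batch B, which overlapped (log2 fold change 0.47, SE 0.25, edgeR adjusted p = 0.377). Spry4 measured 2.85 and 4.22 CPM in the young and 4.71 and 4.21 CPM in the old libraries of batch B (log2 fold change 0.36, SE 0.26, edgeR adjusted p = 0.537). Spry2 (chr14:105891947-105896819, minus strand), a Sprouty gene of limb and lung development, measured 18.9 and 13.9 CPM in the young and 16.9 and 16.3 CPM in the old libraries of batch B (log2 fold change 0.02, 95% interval −0.30 to 0.34). The estimates of all 4 feedback inhibitors were above 0, as were those of 8154 of all 16132 genes tested, with Spry1 alone past the threshold. The estimate of Spry2 was −0.18 without batch B young replicate 2.

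**Figure D3:**
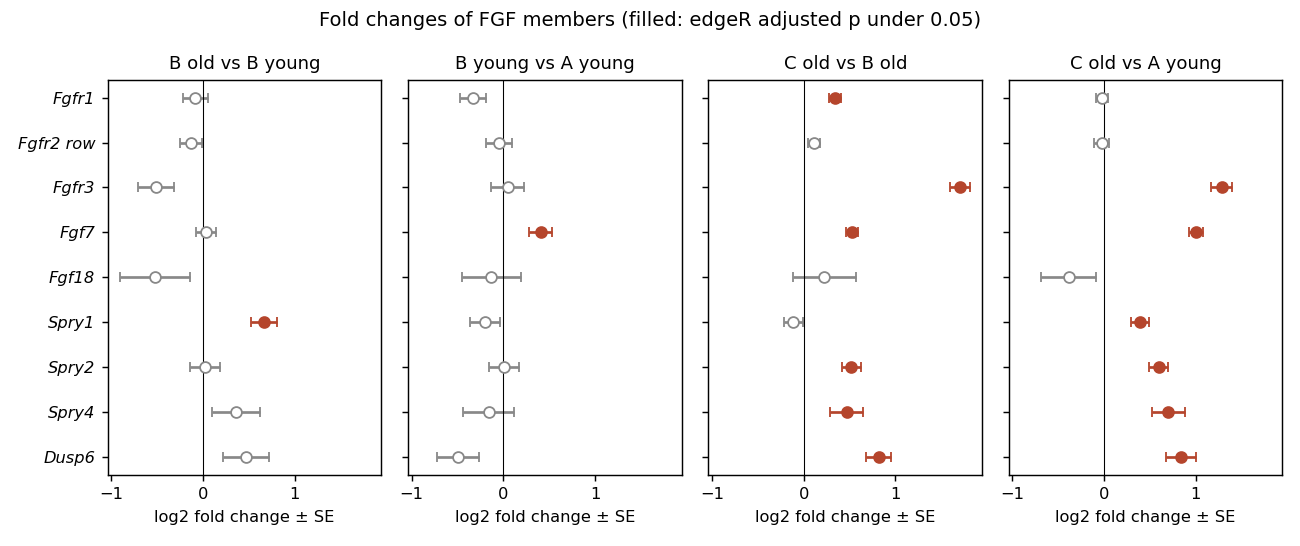
Log2 fold change with its SE (horizontal axes) of the 9 members in 4 comparisons, 1 panel each, with edgeR calls at an adjusted p under 0.05 filled in red. Spry1 is the filled point for old against young in batch B (0.66), Fgf7 for the young libraries of batches B and A (0.41), and 6 members are filled in each comparison of batch C old libraries.

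The other FGF pathway genes were taken from 5 lists of 83 genes in all, of which 78 had a row and 67 were tested for age. Within batch B 0 of the 67 passed edgeR's quasi-likelihood test, 17 had an unadjusted p under 0.05 (16.1% of all genes tested had), limma called 0 and DESeq2 called 1, Ext2, which was lower in old MSCs. Their median log2 fold change was −0.14, against 0.00 over all genes. The 15 other feedback inhibitors and ERK targets, the list closest in kind to Spry1, had a median of 0.14, and 8 of them were above 0.

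A second comparison asked how far members differed between batches A and B within the young age class. Fgf7 rose, the 1 member of 9 to pass, against 18.1% of 14840 genes tested. It was at 148, 151, 127 and 153 CPM in batch A young libraries, all below both batch B young libraries, and differed by 0.41 (SE 0.12, edgeR's quasi-likelihood adjusted p = 0.0365). This call was lost with a correction for transcript length and GC content (0.06, edgeR adjusted p = 0.72) and without batch A young replicate 2, 3 or 4 or batch B young replicate 2 (0.35 to 0.44). The Fgf7 transcript is the poorest of the members in G and C, at 38.0%. Fgfr1, at 191, 217, 202 and 194 CPM in batch A young libraries, was above both batch B young libraries, but the difference of −0.33 (SE 0.14) did not pass (edgeR adjusted p = 0.124).

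Most members stood higher in batch C than in the other batches. Compared with batch B old libraries, 6 of the 9 members rose in batch C old libraries and 0 fell, against 32.1% of 15651 genes that rose. The median log2 fold change was 0.47 for the members and 0.02 for all genes. These are libraries of the same age class, so that this comparison is between batches. The labels give no age per library within the range of 18 to 22 months.

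Fgfr3 showed the largest fold change among the members in this comparison. It was at 56.3, 70.6 and 57.9 CPM in batch C old libraries, above all other libraries, whose highest was 33.2 CPM. Relative to batch B old libraries this was a log2 fold change of 1.70 (SE 0.11), or 3.25-fold (edgeR's quasi-likelihood adjusted p = 8.78e-08). Relative to batch A young libraries, at 22.4, 27.7, 25.1 and 31.3 CPM, it was 1.28 (SE 0.12, edgeR adjusted p = 1.12e-06).

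The balance between both receptors that could be read stood apart in batch C too. Of the summed CPM per kb of Fgfr1 and Fgfr3, Fgfr3 made up 15.4% ± 1.91 (SD, n = 4) in batch A young, 19.8% and 18.2% in the young and 16% and 14% in the old libraries of batch B, and 31.0% ± 2.15 (SD, n = 3) in batch C old libraries. The lowest batch C value, 29.6%, lay above the highest value elsewhere, 19.8%, and Fgfr1 remained the larger of both in every library. Fgfr1 itself was at 185, 193 and 186 CPM in batch C old libraries. It rose by 0.34 (SE 0.07) against batch B old libraries (edgeR adjusted p = 0.000807), but with the correction for length and GC content the value was −0.04, and against batch A young libraries it was −0.03 (SE 0.07, edgeR adjusted p = 0.758).

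**Figure D4:**
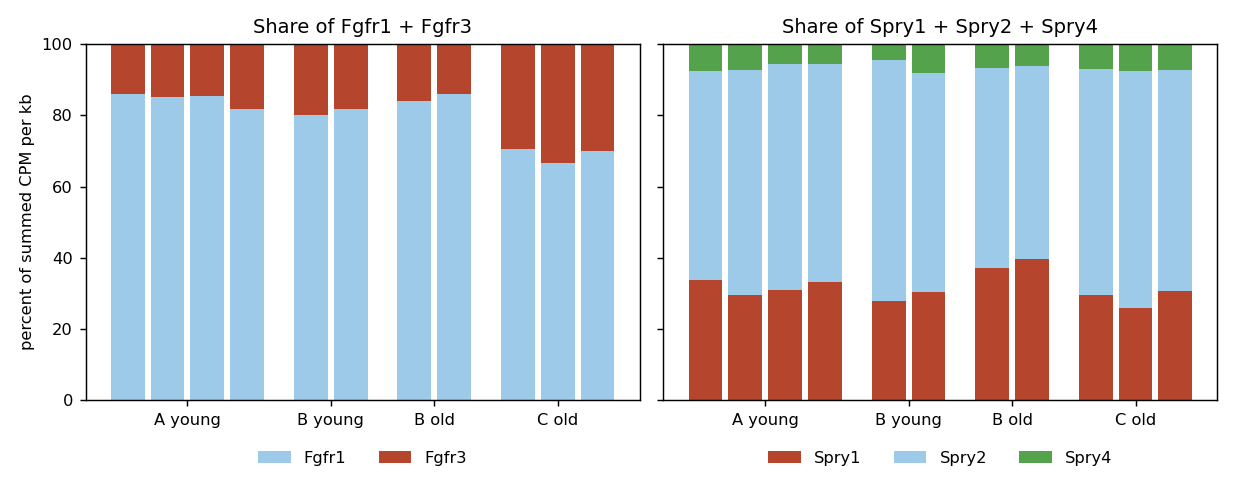
Share of each gene in the summed CPM per kb (vertical axis, percent) of Fgfr1 and Fgfr3 (left) and of the 3 Sprouty genes (right), with 1 bar per library in 4 groups. Fgfr3 takes 29.6% to 33.5% in batch C old libraries and 13.9% to 19.8% in the others, and Spry1 takes 37.1% and 39.6% of the Sprouty sum in batch B old libraries.

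Fgf7 rose by 0.53 (SE 0.07) in batch C old compared with batch B old libraries (edgeR adjusted p = 2.01e-05), with 283, 280 and 268 CPM in batch C. Its levels were 127 to 153 CPM in batch A, 187 to 198 CPM in batch B at either age, and 268 to 283 CPM in batch C. These ranges did not overlap between batches, while the ages of batch B overlapped. Batch A held young libraries alone and batch C old ones alone. The call between batches B and A was lost with the correction for length and GC content (0.06, edgeR adjusted p = 0.72). Fgf18 was at 2.52, 1.30 and 1.51 CPM in batch C old libraries, and its difference from batch B old libraries did not pass (log2 fold change 0.23, SE 0.34, edgeR adjusted p = 0.583).

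Of the feedback inhibitors 3 of 4 rose in batch C old compared with batch B old libraries. Dusp6 was at 36.2, 37.2 and 32.3 CPM and rose by 0.82 (SE 0.14, edgeR adjusted p = 0.000239). Spry2 was at 23.9, 25.8 and 21.5 CPM, above all other libraries, and rose by 0.52 (SE 0.11, edgeR adjusted p = 0.000993). Spry4 was at 5.98, 6.70 and 5.76 CPM, also above all other libraries, and rose by 0.47 (SE 0.18, edgeR adjusted p = 0.0348).

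The Spry4 call was not stable. It was lost without batch B old replicate 2 or any 1 of the batch C libraries (0.38 to 0.51), with the correction for length and GC content (0.27, edgeR adjusted p = 0.196), in the fit of all 4 groups and with DESeq2 (0.46, adjusted p = 0.118). Spry1 was the exception among the 4, at 15.5, 14.0 and 14.8 CPM in batch C against 15.5 and 16.6 CPM in batch B old libraries, with no called difference (log2 fold change −0.11, SE 0.11, edgeR adjusted p = 0.365). With the correction for length and GC content Spry1 was called lower in batch C old libraries (−0.29, SE 0.10, edgeR adjusted p = 0.0312). Of the Sprouty sum per kb, Spry1 made up 37.1% and 39.6% in batch B old libraries and 25.9% to 33.7% in the other 9 libraries.

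Batch C old and batch A young libraries were also compared, where age and batch cannot be told apart. All 4 feedback inhibitors rose, together with Fgfr3 and Fgf7, which made 6 of 9 members against 32.0% of 15021 genes that rose, and 0 members fell. Spry1 rose by 0.39 (SE 0.10, edgeR's quasi-likelihood adjusted p = 0.00447), Spry2 by 0.59 (SE 0.10, adjusted p = 0.000279), Spry4 by 0.70 (SE 0.18, adjusted p = 0.00443) and Dusp6 by 0.84 (SE 0.17, adjusted p = 0.000756). Dusp6 in batch A young libraries was at 15.9, 19.0, 30.1 and 18.4 CPM, so that replicate 3 came close to the lowest batch C library. Fgf7 rose by 1.01 (SE 0.08, edgeR adjusted p = 3.04e-07).

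The age comparison within batch B and the comparison of batches C and A share no library, and their difference was tested for each member. Fgfr3 and Fgf7 differed, 2 of 9 members, both with the lower value within batch B, against 15.9% of 16132 genes that differed in this direction. For Fgfr3 the difference was −1.73 (SE 0.24, edgeR's quasi-likelihood adjusted p = 6.56e-05), and for Fgf7 it was −0.91 (SE 0.14, adjusted p = 0.00015). For Spry1, which rose in both comparisons, the difference was 0.33 (SE 0.18, edgeR adjusted p = 0.161), with a 95% interval of −0.02 to 0.68. Spry2 lay near the threshold, at −0.51 (SE 0.20, edgeR adjusted p = 0.061), and passed with DESeq2, with RLE factors and with scaling by total counts.

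Other genes of the pathway were read against the shares of all genes that were called in the same comparisons. Against batch B old libraries 25 of 67 tested rose and 19 fell, where 32.1% of all genes rose and 32.6% fell. Against batch A young libraries 15 rose and 24 fell, where 32.0% of all genes rose and 31.9% fell. Among the other feedback inhibitors and ERK targets, 7 of 15 rose and 3 fell against batch B old libraries. Egr1, an immediate early gene induced through ERK, was at 847, 876 and 820 CPM in batch C old libraries, compared with 19.96 to 24.7 CPM over the 4 batch B libraries and 33.0 to 47.9 CPM in batch A young libraries. Its log2 fold change against batch B old libraries was 5.27 (SE 0.10, edgeR adjusted p = 3.71e-11). Dusp5, a nuclear ERK phosphatase, was at 25.8, 22.8 and 22.5 CPM in batch C and rose by 2.62 (SE 0.17, edgeR adjusted p = 1.02e-07). Spred1, an inhibitor related to the Sprouty genes, fell by 0.51 (SE 0.07, edgeR adjusted p = 3.9e-05), so the feedback genes did not all move one way.

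**Figure D5:**
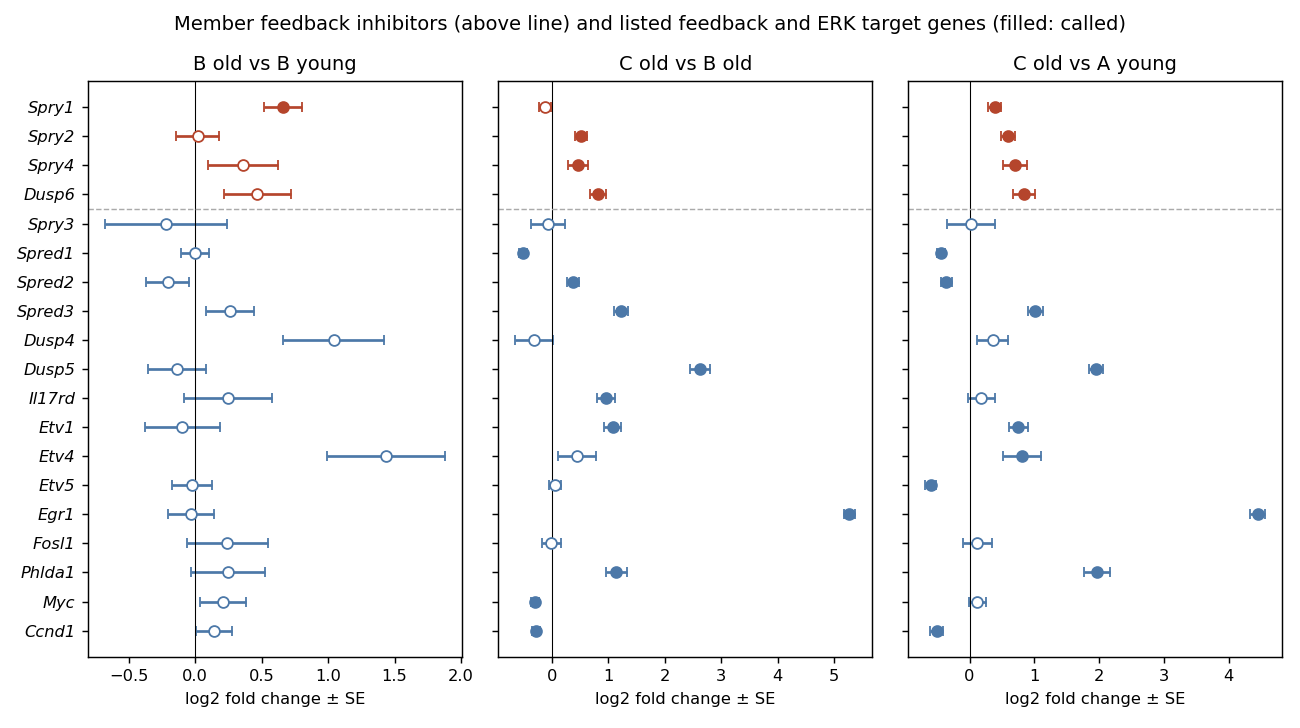
Log2 fold change with its SE (horizontal axes, 1 scale per panel) of the 4 member feedback inhibitors (red) and 15 listed feedback and ERK target genes (blue) in 3 comparisons, filled where the edgeR adjusted p was under 0.05. Spry1 is the filled point within batch B, whereas Egr1 (5.27), Dusp5 (2.62), Spred3 (1.22) and Phlda1 (1.14) lead the filled points of batch C old against batch B old libraries.

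Of 8 other ligands tested 3 rose and 2 fell in batch C old compared with batch B old libraries, to be read beside the 32.1% of all genes that rose and the 32.6% that fell. Fgf14, an intracellular FGF homologue, rose from 0.10 to 1.16 CPM on average and Fgf11 of the same group from 1.44 to 6.59 CPM, while Fgf5 fell from 0.87 to 0.11 CPM and Fgf21, a hormone-like FGF, from 1.78 to 0.44 CPM. These ligands were low, and Fgf14 in batch B and Fgf5 in batch C were near the detection floor of 3 counts per library. Of 6 other receptors and binding proteins 3 rose and 0 fell. Fgfr4 was low, on average 0.55 CPM in batch C old against 0.07 CPM in batch B old libraries. It had 1 count in each batch B old library, under the floor of 3 counts, and was at 0.41 CPM on average in batch B young libraries. Flrt1 rose from 2.05 to 6.05 CPM. Fgfrl1, the receptor without a kinase domain, ranged from 121 to 139 CPM in batch C old and from 74.6 to 83.2 CPM in batch B old libraries (log2 fold change 0.71, SE 0.08, edgeR adjusted p = 9.68e-06).

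The list of heparan sulphate proteoglycans and their enzymes was mixed. Of 18 genes tested 5 rose and 6 fell in batch C old compared with batch B old libraries, where again 32.1% of all genes rose and 32.6% fell. Hspg2 (perlecan) rose by 1.30 (SE 0.10, edgeR adjusted p = 2.9e-07), yet compared with batch A young libraries it fell by 0.63 (SE 0.11, edgeR adjusted p = 0.000302). Sdc4 (syndecan 4) fell by 1.05 (SE 0.06, edgeR adjusted p = 4.78e-08) against batch B old libraries. Of the 20 genes of the cytoplasmic relay, 7 rose and 8 fell. The adaptor Frs3 rose by 1.25 (SE 0.28, edgeR adjusted p = 0.00212), and Hras, 1 of the RAS genes, fell by 1.29 (SE 0.09, edgeR adjusted p = 1.87e-07).

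Markers of other cells moved with the batch C results. The summed level of 12 leukocyte markers was 144 to 168 CPM in batch C old, 845 to 1200 CPM in batch B old, 410 to 850 CPM in batch B young and 732 to 1630 CPM in batch A young libraries, with none of the 12 at 0 in all libraries of a group. The summed level of 4 proliferation markers was 357 to 413 CPM in batch C and 90.8 to 317 CPM elsewhere. Of these 4, Mki67 and Top2a in batch C lay above all other libraries. Ccnb1 (26.7 to 33.2 CPM in batch C) and Cdk1 (32.4 to 41.1 CPM) lay within their batch A young ranges, 22.4 to 56.9 and 25.5 to 42.6 CPM. The summed level of 5 osteoblast markers was 477 to 669 CPM in batch C and 201 to 389 CPM elsewhere. Within batch B, beside the Spry1 result, osteoblast markers were at 361 to 389 CPM in old and 201 to 228 CPM in young libraries. Proliferation markers were at 132 to 194 CPM in old and 90.8 to 103 CPM in young, and 4 chondrocyte markers at 2300 to 2560 CPM in old and 4370 to 6260 CPM in young. None of the 4 proliferation markers was called within batch B (edgeR adjusted p from 0.125 to 0.307). Of the osteoblast markers Alpl alone was called (means 236.6 CPM in old and 120.5 CPM in young). Sp7 and Ibsp were higher in old without a call, Bglap overlapped, and Runx2 was level (41.66 and 41.48 CPM). Of the chondrocyte markers Comp alone was called (1737 CPM in old and 4313 CPM in young). Sox9 was lower in old without a call, and Col2a1 and Acan overlapped. The chondrocyte sum was 3840 to 4560 CPM in batch C old and 5190 to 7010 CPM in batch A young libraries. Of the 4 markers Comp alone separated these groups, at 2703 to 3414 CPM in batch C old and 4002 to 6053 CPM in batch A young libraries. Sox9, Col2a1 and Acan overlapped between them. The 8 MSC markers were present in all libraries. Their sum was 54900 to 63900 CPM in batch A young, 26100 to 45700 CPM in batch B young, 24200 to 25300 CPM in batch B old and 20400 to 21300 CPM in batch C old libraries, and most of it was Col1a1, with group means of 18860 to 56050 CPM. Pdgfra, alone of the 8, was called within batch B, lower in old than in young libraries (log2 fold change −0.86, SE 0.15, edgeR adjusted p = 0.0059). Outside batch B it was at 163.8 to 227.2 CPM in batch A young libraries. In batch C old libraries it was at 266.9 to 286.6 CPM, above all young libraries. The 4 erythroid markers reached at most 2.69 CPM. The part of these markers in the FGF results was not tested, and in bulk samples fewer cells of a type and less RNA per cell cannot be told apart.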

How the data were processed

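The deposited table held raw read counts per Ensembl gene for 11 libraries, with no values per sample from other columns. Per the labels, reads were placed on mm10 (GRCm38). The aligner and counter are not given in the sources used here for these libraries, and the study's stated methods concern another comparison of cultured MSCs. Symbols and positions came from GENCODE M21 (28179 of 28222 identifiers matched). Genes were kept by edgeR's filterByExpr with a minimum count of 5, and tested with edgeR 4.0.16 (TMM, quasi-likelihood, Benjamini-Hochberg adjustment, threshold 0.05) in R 4.3.3. The age comparison and the difference of both age comparisons were fitted to all 11 libraries with 1 mean per batch and age, and the others to the groups compared. Alternatives were limma 3.58.1, DESeq2 1.42.0, other scalings and filters, each library left out, a replicate block and, added after the data were seen, a correction for transcript length and GC content. The comparisons between groups were tested on simulated data with edgeR, limma and DESeq2 at the reported filter and scaling. The difference of both age comparisons and the other alternatives were not simulated. All 10 members were named, with, from the other pathway lists, the genes called for age and at most the 2 called genes of largest change in each direction per list and comparison. Spred3, Ext2 and Gm43439 were added after their values were seen. The members and lists were chosen with earlier results of these data known.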

Additional observations from a re-analysis of the deposited data

Results flagged for a closer look

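The difference between the age comparison within batch B and the comparison of batch C old with batch A young libraries was tested for each gene described. It passed for Fgfr3, at −1.73, where batch B old libraries lay below batch B young ones while batch C old libraries lay above batch A young ones. It passed for Fgf7, at −0.91, which hardly differed by age within batch B. It also passed for Gm43439, the non-coding gene that overlaps Fgf2, at −0.89 (edgeR's quasi-likelihood adjusted p = 0.000598). Batches C and A differ in batch as well as age, so the part of either cannot be told apart. No value of a member in the 4 batch A young libraries stood apart from the rest by Dixon's test.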

How the results depend on the processing

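Over 765 pairs of a member's fold change and an alternative, 719 kept their direction and side of the threshold, or changed sign by less than 1 SE where uncalled. The number of members called for age within batch B was 2 without a filter and 2 without the batch term, 0 with the replicate block and 0 with batch B alone, and 0 to 2 when 1 library was left out. For batch B against batch A in young MSCs it was 2 without a filter, 2 in the fit of all 4 groups, 0 with the replicate block, 0 with the correction for length and GC content, and 0 to 2 when 1 library was left out. For batch C old against batch B old, batch C old against batch A young and the difference of both age comparisons it stayed within 1.5 times under every alternative run, including the replicate block. Same-numbered libraries did not deviate together (r from −0.134 to 0.163), so the replicate numbers were not taken to pair samples. With the replicate block the calls of Spry1 for age (0.66, edgeR adjusted p = 0.0557), Fgf7 for batch B against batch A (0.36, adjusted p = 0.473) and Spry4 for batch C old against batch B old (0.51, adjusted p = 0.0679) were lost. Reversed values were Fgfr1 in batch C old against batch B old libraries with the correction for length and GC content (−0.04), and, in batch C old against batch A young libraries, Fgfr1 (0.27) and the Fgfr2 row (0.27) with scaling by total counts. That scaling moved the median of all genes by 0.29 in the last comparison, 0.19 in batch C old against batch B old and −0.29 in the difference of both age comparisons, so the reversed values are close to the shift itself. For age, genes called of all tested were 640 with DESeq2, 1094 without a filter, 2641 without the batch term and 123 in batch B alone, against 360 in the reported fit, and 84 to 2007 when 1 library was left out. Between batches B and A they were 729 with the replicate block, 4171 in the fit of all 4 groups and 511 to 4031 when 1 library was left out, against 2686. The causes of the lost calls were not tested. Low counts limit Fgf18 and Spry4, and the Fgfr2 row may hold reads of overlapping genes.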
